A study of Homo sapiens with 3 samples.

Results

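The small leucine-rich proteoglycans described here are 8 genes, DCN, BGN, ASPN, LUM, FMOD, PRELP, OMD and OGN, taken by symbol from the 33538 genes counted in each library. They were chosen with earlier results of these libraries in view, as a family in which some members were lower after induction of NEUROD1 while ASPN was not, so their library and mesenchymal levels are given as a description. The cells came from blood vessel organoids at day 45, made from the human embryonic stem cell line H1, in which every culture carried a PiggyBac cassette for NEUROD1-P2A-GFP under doxycycline control. The transcription factor NEUROD1 promotes neuronal differentiation. The 3 libraries, 1 per group, held organoids without induction, with 15 days of induction and with 45 days of induction.

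The dose of doxycycline was 1 µg/ml, and the neurotrophins BDNF and NT-3 were present from day 15 in each group, uninduced organoids included. When the 15 days of induction began is not in the labels. Each library pooled 5 to 6 organoids, which were digested for 30 min in papain (20 U/ml) and filtered at 40 µm, so the spread between organoids cannot be seen, and no test between groups is possible. After filtering, the uninduced, 15 day and 45 day libraries kept 8230, 5078 and 8900 cells with a median of 5140, 7298 and 5554 UMIs (unique molecular identifiers, each 1 counted RNA molecule). Between 13 and 33 cell barcodes were shared by any 2 libraries. NEUROD1 had 77 UMIs without induction, 68 in the library labelled 15 days and 2388 at 45 days, or 1.51, 1.51 and 43.5 CPM (UMIs of a gene relative to all UMIs, scaled to a common total). The library labelled 15 days was thus no higher in NEUROD1 than the uninduced one. RNA from the cassette, which every culture carried, may end in vector sequence that is not counted for the gene. The labels also do not say whether induction was still running when the cells were taken. The part of either in the low value was not tested. Neuron-like cells made up 0% of the uninduced cells, 5.93% at 15 days and 3.34% at 45 days. Endothelial-like cells, the defining cells of a vessel, made up 5.49%, 6.40% and 2.52%, and mural-like cells 3.52%, 7.72% and 6.08%.

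Small leucine-rich proteoglycans are secreted proteins whose curved leucine-rich repeats bind collagen and set the width and spacing of its fibrils. Many carry chondroitin, dermatan or keratan sulfate chains, and several also hold growth factors such as TGF-beta in the matrix. In connective tissue they are made mainly by fibroblasts, and biglycan also by the mural cells of vessels.

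Most of the genes lie beside other members. On GRCh38, with GENCODE 29 positions, DCN (ENSG00000011465) is at chr12:91140484-91183123 and LUM (ENSG00000139329) at chr12:91102629-91111831, both on the minus strand and 28.7 kb apart with no protein-coding gene between them. ASPN (ENSG00000106819, chr9:92456205-92482506), OMD (ENSG00000127083, chr9:92414245-92424461) and OGN (ENSG00000106809, chr9:92383967-92404696) follow each other on the minus strand of chromosome 9. All 3 lie inside the span of CENPP, a centromere protein gene on the opposite strand, and the sources used here do not say whether counting used strand. FMOD (ENSG00000122176, chr1:203340628-203351758, minus strand) and PRELP (ENSG00000188783, chr1:203475828-203491352, plus strand) are 124.1 kb apart, and BGN (ENSG00000182492) is at chrX:153494939-153509554 on the plus strand.

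The 250 bases before the start of ASPN and of OGN are shown because these are neighbours, and OGN was found in more of the cells with ASPN than of those without in 9 of 12 sets of cells described below. They are RefSeq sequences on GRCh38.p14, at chr9:92482507-92482756 and chr9:92404700-92404949, minus strand, written 5′ to 3′. Capitals mark matches on either strand to TATAAA, the TATA box, and to CANNTG, the E-box bound by helix-loop-helix factors such as NEUROD1.
ASPN: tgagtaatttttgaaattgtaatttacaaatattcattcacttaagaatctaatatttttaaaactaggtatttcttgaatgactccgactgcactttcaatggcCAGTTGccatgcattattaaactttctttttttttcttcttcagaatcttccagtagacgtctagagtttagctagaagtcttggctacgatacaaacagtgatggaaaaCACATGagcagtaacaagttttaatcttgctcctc
OGN: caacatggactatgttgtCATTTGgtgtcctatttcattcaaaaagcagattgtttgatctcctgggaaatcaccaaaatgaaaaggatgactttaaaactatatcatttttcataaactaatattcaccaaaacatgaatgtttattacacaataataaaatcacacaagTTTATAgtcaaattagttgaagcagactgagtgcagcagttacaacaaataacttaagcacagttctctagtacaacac
The ASPN stretch holds 2 CANNTG matches and 0 of TATAAA, and the OGN stretch holds 1 of each. Of 35116 human promoters cut to the same length, 61.8% hold CANNTG and 10.7% hold TATAAA, so an E-box match is the common case, and these letters say nothing about binding. TGANTCA, the AP-1 motif, was in neither stretch and in 6.57% of all promoters. RefSeq sequences were found for 5 of the 8 members, with none for DCN, LUM or OMD.

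Over whole libraries, 4 of the 6 members that reached 10 CPM in at least 1 of the 2 sums were at least 2-fold lower at 45 days than without induction, namely DCN, LUM, FMOD and OGN. By the same measure 1.43% of all 9309 genes were that much lower. ASPN was not among them, and BGN was nearly level. None was at least 2-fold higher, against 1.7% of all genes. At 15 days 5 of 6 were at least 2-fold lower, ASPN included, against 1.08% of all 9692 genes, and 0 were that much higher, against 4.51%. From 15 to 45 days, 1 of 5 members was at least 2-fold higher, ASPN, against 0.206% of all genes, and 0 were that much lower, against 1.68%. These calls use log2 ratios with 5 CPM added to each side, whose median was -1.66 over the 6 members and 0.14 over all genes at 45 days against no induction. Since the members were chosen on these values, the counts describe the family and support nothing further. The median of ratios over genes, another scaling, shifts the zero line of these log2 ratios to 0.17 at 45 days and 0.26 at 15 days against no induction, and to -0.10 at 45 days against 15.

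**Figure D1:**
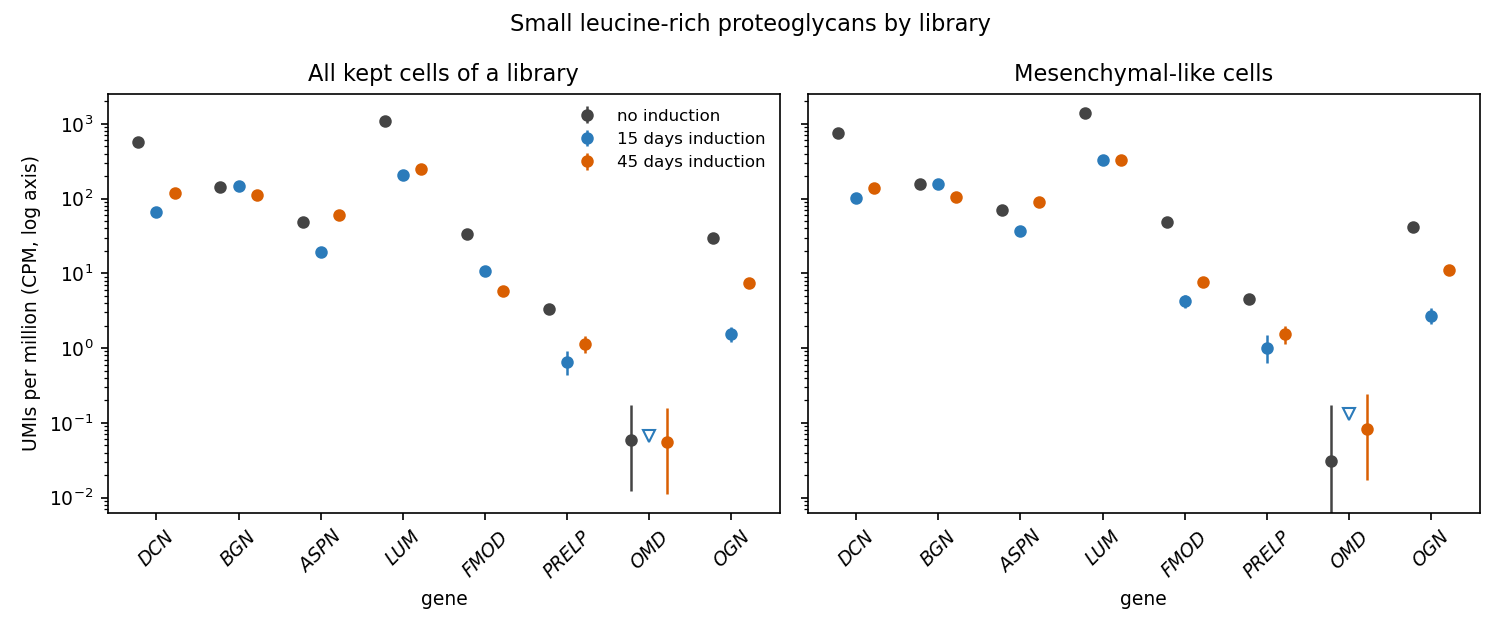
Level of each of the 8 members in CPM (log axis) in each library, over all kept cells (left) and over mesenchymal-like cells (right). Points are sums over cells, bars are exact Poisson 95% intervals for counting error, and open triangles mark 0 UMIs, drawn at the level of 3 UMIs; the lower end of the uninduced OMD bar on the right lies below the axis. DCN, LUM, FMOD and OGN sit highest without induction, while ASPN is lowest in the library labelled 15 days.

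Decorin, encoded by DCN, is the class I member that coats collagen I fibrils and binds TGF-beta. It stood at 569 CPM (562 to 575) without induction, 66.2 CPM (63.8 to 68.6) in the library labelled 15 days and 118 CPM (115 to 121) at 45 days. The uninduced library was the high one, and DCN was 4.83-fold lower at 45 days (95% interval 4.70 to 4.96). All such intervals cover counting error only, leaving out the spread between organoids and captures. In a whole-library sum, fewer cells of a type and less RNA per cell cannot be told apart. The clusters below give cell numbers and levels side by side. They were themselves made from the expression of other genes, so a cell whose expression changed may fall in another cluster. They therefore cannot fully separate cell numbers from levels.

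Biglycan, encoded by BGN, is the closest relative of decorin. It had 141 CPM (138 to 144), 147 CPM (144 to 151) and 113 CPM (110 to 116) in the same order. The 3 libraries were close, with BGN 1.25-fold lower (1.21 to 1.29) at 45 days than without induction. Its direction at 15 days against no induction depends on the scaling, with a log2 ratio of 0.06 by totals and -0.20 by the median of ratios.

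Asporin, encoded by ASPN, is the third class I member, bears a stretch of aspartate near its start in place of a chain site, and binds collagen and TGF-beta. ASPN was at 48.2 CPM (46.3 to 50.2) without induction, 19.5 CPM (18.2 to 20.8) in the library labelled 15 days and 60.4 CPM (58.4 to 62.5) at 45 days. The library labelled 15 days was the low one, 2.48-fold below the uninduced library (2.29 to 2.68) and 3.10-fold below 45 days (2.88 to 3.34). The 45 day library was 1.25-fold above the uninduced one (1.19 to 1.32).

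Lumican, encoded by LUM, leads the class II members, which carry keratan sulfate, and regulates fibrils in cornea and skin. LUM had 1078 CPM (1069 to 1087) without induction, 206 CPM (201 to 210) in the library labelled 15 days and 248 CPM (244 to 252) at 45 days. As with DCN the uninduced library was the high one, and LUM was 4.35-fold lower (4.27 to 4.44) at 45 days. Fibromodulin, encoded by FMOD, binds the same collagen site as lumican. FMOD had 33.6 CPM (32.05 to 35.3), 10.7 CPM (9.81 to 11.7) and 5.72 CPM (5.10 to 6.38), and the 45 day library was the lowest.

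PRELP, an anchor between basement membranes and collagen, was rare: 169, 29 and 62 UMIs, or 3.31, 0.644 and 1.13 CPM. OMD, encoding the bone protein osteomodulin, had 3, 0 and 3 UMIs, so no comparison can be drawn for it, and 3 UMIs is also the limit that its count of 0 allows. Mimecan, encoded by OGN, is the class III member. OGN had 1498, 69 and 405 UMIs, making 29.4 CPM (27.9 to 30.9) without induction, 1.53 CPM (1.19 to 1.94) in the library labelled 15 days and 7.37 CPM (6.67 to 8.13) at 45 days. It was 19.2-fold lower in the library labelled 15 days than without induction (15.1 to 24.8) and 3.98-fold lower at 45 days (3.57 to 4.46).

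Of 22 clusters, made with the 8 members left out of the genes clustered on, 12 were mesenchymal-like by their markers, such as PDGFRA, COL1A1 and COL3A1. They made up 72.9%, 61.9% and 73.4% of the uninduced, 15 day and 45 day libraries, and their largest cluster was cluster 2 without induction and cluster 0 at 15 and 45 days. Within them 4 of 6 members were at least 2-fold lower at 45 days, again DCN, LUM, FMOD and OGN, against 1.43% of 8721 genes, and 0 were higher, against 1.09%. The same 4 were that much lower at 15 days, against 1.44% of 8779 genes, and 0 were higher, against 2.28%. ASPN and OGN were at least 2-fold higher at 45 days than at 15, 2 of 5 members against 0.193% of 8816 genes, and 0 were lower, against 0.397%. In mesenchymal-like cells ASPN was at 69.96 CPM (67.1 to 72.9), 36.8 CPM (34.4 to 39.4) and 89.7 CPM (86.6 to 92.8). The summed level of 13 mesenchymal markers in these cells also differed between the libraries. It was 11509 CPM without induction, 4630 CPM in the library labelled 15 days and 4905 CPM at 45 days. Much of the sum was collagen. In the same order COL1A1 had 2170, 505 and 538 CPM, COL1A2 2364, 685 and 838 CPM, and COL3A1 4567, 2120 and 1738 CPM. The sum thus largely repeats collagen levels and is no measure of mesenchymal identity. Its part in the lower members was not tested.

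**Figure D2:**
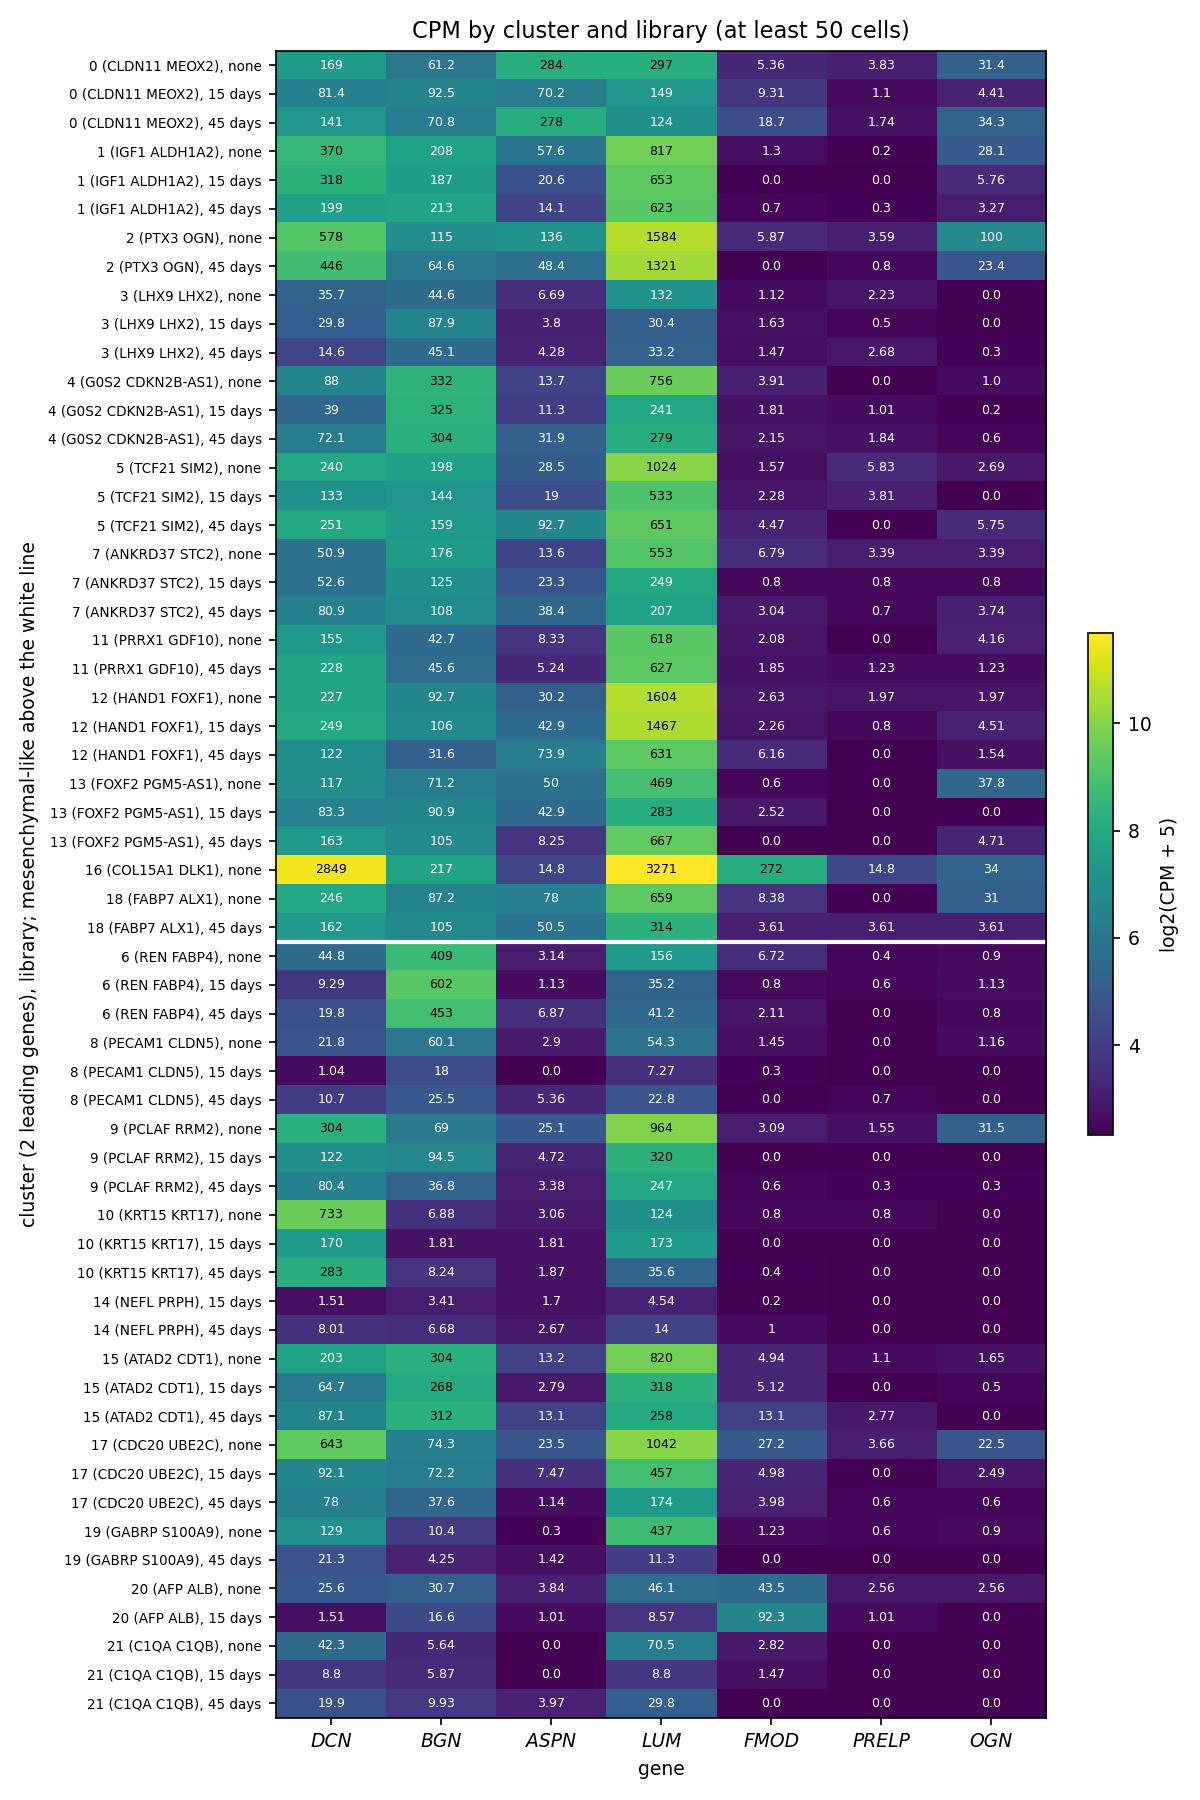
CPM of 7 members in each cluster and library with at least 50 cells, coloured by log2(CPM + 5), with clusters named by number and 2 leading genes and the mesenchymal-like ones above the white line. OMD is left out, having at most 3 UMIs in a library. DCN, LUM and FMOD peak in cluster 16, ASPN in cluster 0, and BGN in the mural-like cluster 6.

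DCN, LUM and FMOD shared a main source in the uninduced library. Cluster 16, led by COL15A1 and DLK1, held 425 uninduced cells, 2 cells in the library labelled 15 days and 28 cells at 45 days. Its 425 uninduced cells had 2849 CPM of DCN, 3271 CPM of LUM and 272 CPM of FMOD. They were 5.16% of the uninduced cells and supplied 53.8% of DCN, 32.6% of LUM, 86.9% of FMOD and 47.9% of PRELP UMIs of that library. These cells were deep, with a median of 12422 UMIs, and whether doublets remained among them was not tested. After each cell was thinned to 2000 UMIs, 94.95% of the cells of cluster 16 still had a DCN UMI, 95.2% had LUM and 28.4% had FMOD, against 3.39%, 15.3% and 1.69% of the 59 uninduced haematopoietic-like cells deep enough to thin. Haematopoietic-like cells, which should lack these genes, had a median of 4104 UMIs.

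Within the mesenchymal-like cells, a gate on COL15A1 alone, at 2 UMIs or more, found a like set. It held 409 cells without induction, 7 in the library labelled 15 days and 35 at 45 days. The gate leaves out cells of other classes, so it is not independent of the clustering. Near that gate lay 74 cells at exactly 2 UMIs and 301 at 1 UMI. The uninduced gated cells held 14566 of the 29020 DCN UMIs and 1480 of the 1715 FMOD UMIs. Cluster and gate thus both placed most FMOD of the uninduced library in COL15A1 cells.

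Without cluster 16, the mesenchymal-like cells had 340 CPM of DCN without induction and 129 CPM at 45 days, 2.63-fold lower (2.54 to 2.72). LUM had 1041 and 315 CPM, 3.31-fold lower (3.23 to 3.38). FMOD then had 3.46 and 6.36 CPM, so its direction turned, with both values under the 10 CPM floor. This leaves 3 of 5 members at least 2-fold lower, DCN, LUM and OGN, against 0.784% of 8677 genes.

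**Figure D3:**
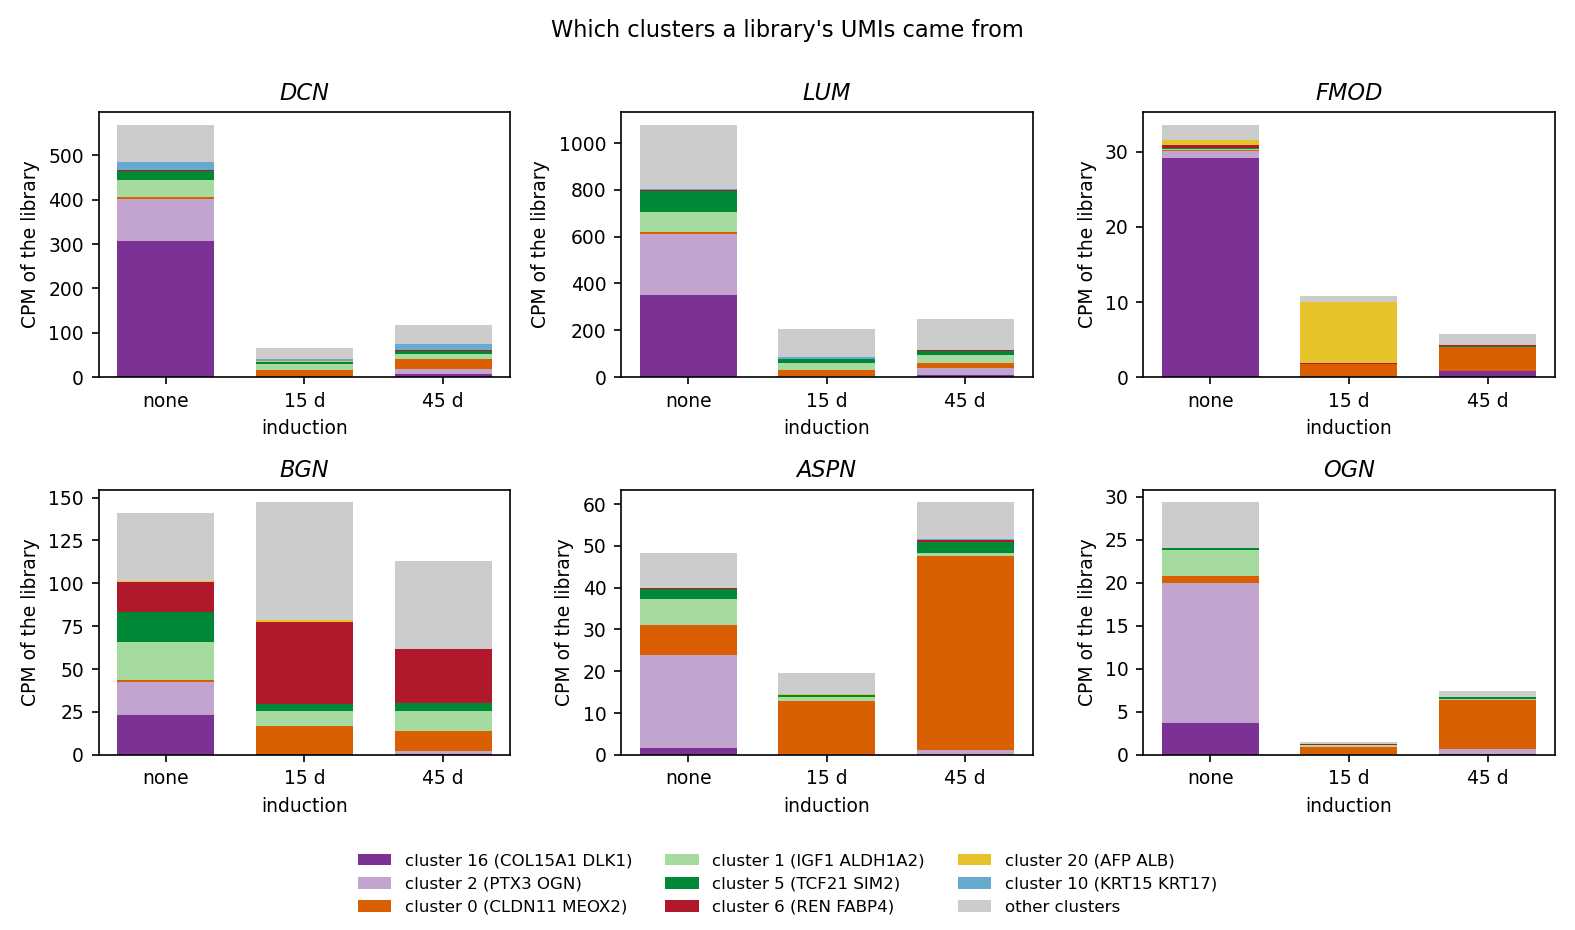
Level of 6 members in each whole library in CPM, split by the cluster that the UMIs came from. The purple block of cluster 16 makes up 53.8% of uninduced DCN and 86.9% of uninduced FMOD, and the orange block of cluster 0 makes up 76.9% of ASPN at 45 days.

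ASPN came from other cells. Cluster 0, led by CLDN11 and MEOX2, held 269 cells without induction, 1096 in the library labelled 15 days and 1705 at 45 days, or 3.27%, 21.6% and 19.2% of each library. It supplied 15.1%, 65.3% and 76.9% of the ASPN UMIs. The level inside the cluster was 284 CPM (256 to 314) without induction, 70.2 CPM (64.6 to 76.2) in the library labelled 15 days and 278 CPM (267 to 289) at 45 days. The uninduced and 45 day levels overlap in their intervals, and the library labelled 15 days was 4.05-fold below the uninduced one. ASPN is itself among the 5 leading genes of cluster 0, although it was not used to make the cluster.

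After thinning, 18.7% of the cells of cluster 0 had an ASPN UMI without induction, 11.0% in the library labelled 15 days and 31.5% at 45 days. Before thinning the shares were 32.3%, 21.2% and 48.4%, at median depths of 4555, 6899 and 5165 UMIs. None of 59, 79 and 72 thinned haematopoietic-like cells, of median depths 4104, 7373 and 5303.5 UMIs, had one, which allows shares of up to 5.08%, 3.797% and 4.17%. A gate on mesenchymal-like cells with both MEOX2 and CLDN11 gave 189, 64.5 and 247 CPM in 91, 544 and 973 cells, with the same low library.

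Without induction the main source of ASPN was cluster 2, led by PTX3 and OGN, the latter not used to make it, with SFRP2, CXCL14 and COL14A1 among its markers. It held 1696 cells without induction, 11 in the library labelled 15 days and 229 at 45 days, and gave 46.1% of uninduced ASPN. ASPN in it was 136 CPM (128 to 144) without induction and 48.4 CPM (36.9 to 62.3) at 45 days, 2.81-fold lower. So the near-equal library totals of ASPN were reached with different clusters, with cluster 2 leading without induction and cluster 0 at 45 days. Uninduced cluster 2 also held 4826 of the 29020 DCN UMIs and 13226 of the 54994 LUM UMIs of its library. ASPN thus shared this source with DCN and LUM.

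OGN had the same pair of sources. Cluster 2 gave 55.7% of uninduced OGN UMIs and cluster 0 gave 77.8% at 45 days. In cluster 2 OGN was at 100.001 CPM (93.3 to 107) without induction and 23.4 CPM (15.7 to 33.6) at 45 days. In cluster 0 it was at 31.4 CPM (22.5 to 42.6), 4.41 CPM (3.09 to 6.10) and 34.3 CPM (30.6 to 38.3), low in the library labelled 15 days as ASPN was. In that library OGN rested on few cells, since 10 cells gave 43.5% of its 69 UMIs.

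FMOD in cluster 0 did not follow its library total. It was at 5.36 CPM (2.15 to 11.0) without induction, 9.31 CPM (7.33 to 11.7) in the library labelled 15 days and 18.7 CPM (16.04 to 21.8) at 45 days. At 45 days cluster 0 supplied 54.8% of FMOD UMIs.

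Within the other mesenchymal-like clusters ASPN went both ways. Of 9 clusters in which ASPN could be compared between 45 days and no induction, it was at least 2-fold lower in 3, clusters 1, 2 and 13, and at least 2-fold higher in 3, clusters 5, 7 and 12. Over the 11 clusters present in both libraries, 0.375% to 5.48% of all genes were that much lower and 0.516% to 8.25% that much higher. Cluster 13, led by FOXF2 and PGM5-AS1, had 50.04 CPM without induction and 8.25 CPM at 45 days. Cluster 1, led by IGF1 and ALDH1A2, had 57.6 and 14.1 CPM. In the other direction, cluster 5, led by TCF21 and SIM2, had 28.5 CPM without induction and 92.7 CPM at 45 days, and cluster 12, led by HAND1 and FOXF1, had 30.2 and 73.9 CPM. The clusters thus split in direction, and the differences between them were not tested.

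Gates on marker genes, also set within the mesenchymal-like cells, gave the direction of some of these clusters and not of others. Cells with TCF21 but neither HAND1 nor FOXF1 had 28.1 CPM of ASPN without induction and 80.7 CPM at 45 days, as cluster 5 did. Cells with 2 of PTX3, FOXF2 and DKK2 had 101 and 48.5 CPM, in the direction of cluster 2. Cells with IGF1 and ALDH1A2 had 66.3 and 128 CPM, against the direction of cluster 1. Of the 852 cells in that gate, 151 also passed the MEOX2 and CLDN11 gate. Cells with both HAND1 and FOXF1 had 11 and 6 ASPN UMIs, too few to place beside cluster 12.

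Inside clusters, LUM was at least 2-fold lower at 45 days than without induction in 6 of 11 mesenchymal-like clusters and below in 9, with a median log2 ratio of -1.06. DCN was that much lower in 1 of 11 and below in 7, with a median of -0.27. OGN could be compared in 5 and was at least 2-fold lower in 4, with cluster 0 as the exception and a median of -1.9997. At 15 days OGN was that much lower in 3 of 3 clusters, LUM in 3 of 8 and DCN in 2 of 8. For DCN at 45 days, the log2 ratio over all mesenchymal-like cells was -2.40, and it was -1.36 without cluster 16, which is not among the 11.

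Averaging the cluster levels with the same weights in both libraries put this in 1 value per gene. Over 11 clusters present in both libraries, the log2 ratio at 45 days against no induction was -0.32 for DCN, -0.56 for LUM, -1.02 for OGN, 0.19 for FMOD, -0.19 for BGN and -0.20 for ASPN. Over the same 11 clusters summed as they occurred, which is the mesenchyme without cluster 16, the values were -1.36 for DCN, -1.71 for LUM, -1.56 for OGN and 0.15 for ASPN. ASPN was thus on either side of 0 by these measures, each of them under 2-fold. At 15 days against no induction, over 8 clusters, the values were -0.48 for DCN, -0.71 for LUM, -1.36 for ASPN and -1.47 for OGN. Between 15 and 45 days ASPN stood at 1.56 and OGN at 1.26.

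**Figure D4:**
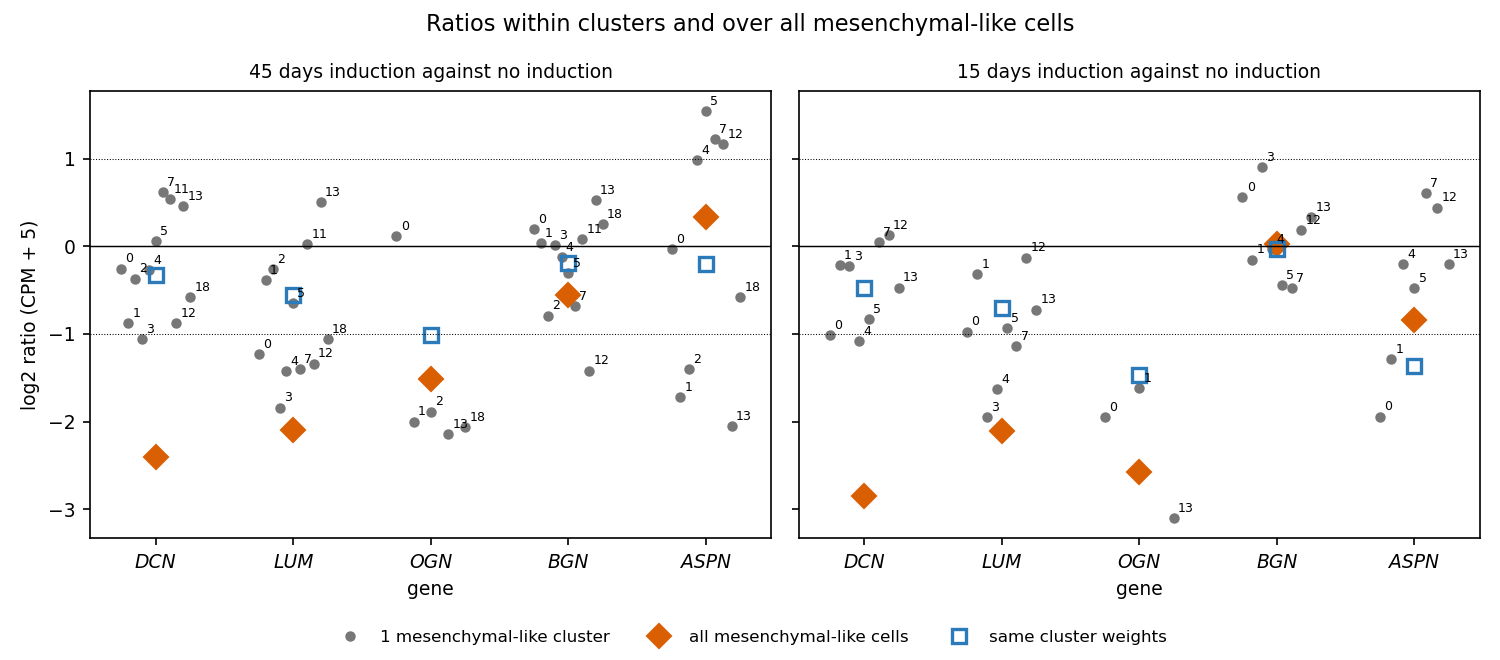
Log2 ratios of 5 members for 45 days (left) and 15 days (right) against no induction. Grey points are mesenchymal-like clusters marked with their number, orange diamonds all mesenchymal-like cells, and blue squares the mean with the same cluster weights in both libraries; dotted lines mark 2-fold. The diamonds include cluster 16 and, at 15 days, other clusters with under 50 cells in a library, which the squares and grey points leave out, and for DCN and LUM they lie below the squares, while ASPN at 45 days spreads from -2.05 to 1.54 among clusters.

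BGN had its own distribution. Its highest level was in mural-like cells, cluster 6, with 409 CPM (383 to 437), 602 CPM (577 to 629) and 453 CPM (432 to 475), and these cells gave 12.7%, 32.3% and 27.6% of BGN UMIs. Mural cells wrap vessels and contract. Among mesenchymal-like clusters the highest was cluster 4, led by G0S2 and CDKN2B-AS1, with 332, 325 and 304 CPM, nearly level over the 3 libraries. In mural-like cells LUM was at 156, 35.2 and 41.2 CPM and DCN at 44.8, 9.29 and 19.8 CPM, both highest without induction.

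Cycling cells, clusters 9, 15 and 17, held LUM at 948, 348 and 230 CPM, DCN at 371, 83.2 and 81.3 CPM and BGN at 132, 188 and 98.6 CPM without induction, in the library labelled 15 days and at 45 days. Endothelial-like cells had 21.8, 1.04 and 10.7 CPM of DCN and 54.3, 7.27 and 22.8 CPM of LUM, and haematopoietic-like cells had 42.3, 8.80 and 19.9 CPM of DCN and 70.5, 8.80 and 29.8 CPM of LUM. In endothelial-like and haematopoietic-like cells DCN and LUM ranked the libraries as the library totals did. In cycling cells both were highest without induction too, but not lower at 15 days than at 45. Whether levels in these classes are free RNA was not tested. In neuron-like cells DCN was at 1.51 CPM at 15 days and 8.01 CPM at 45 days, and ASPN at 1.70 and 2.67 CPM.

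Epithelial-like cells had both DCN and LUM. Cluster 19, led by GABRP and S100A9, had 437 CPM of LUM and 129 CPM of DCN without induction, and 11.3 and 21.3 CPM at 45 days. Cluster 10, led by KRT15 and KRT17, had 733 CPM of DCN (687 to 780) without induction, 170 CPM (151 to 191) in the library labelled 15 days and 283 CPM (263 to 304) at 45 days, on 958, 282 and 756 UMIs. Thinned, 64.4%, 22.8% and 31.7% of its cells had a DCN UMI, at median depths of 5816.5, 7023.5 and 5877 UMIs, against 3.39%, 0% and 2.78% of haematopoietic-like cells. Its DCN UMIs per LUM UMI were 5.91 (5.00 to 7.03) without induction, 0.986 (0.833 to 1.17) in the library labelled 15 days and 7.96 (6.42 to 9.96) at 45 days. In mesenchymal-like cells, the largest source of both genes, the same ratio was 0.538, 0.312 and 0.429. The ratio in cluster 10 was above that of the pooled mesenchyme in all 3 libraries, with intervals apart. Against single mesenchymal-like clusters this held without induction and at 45 days, where the highest were cluster 16 at 0.871 and cluster 0 at 1.14. In the library labelled 15 days cluster 3 had a like ratio, 0.982 (0.665 to 1.45). The profile of free RNA was not measured, and its part in these levels was not tested. ASPN in this cluster had 4, 3 and 5 UMIs.

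FMOD had a second source in hepatocyte-like cells, cluster 20, led by AFP and ALB. FMOD was at 43.5 CPM (30.1 to 60.8) in 80 uninduced cells and 92.3 CPM (83.1 to 102) in 248 cells of the library labelled 15 days, while 16 cells were found at 45 days. These 248 cells gave 75.6% of the FMOD UMIs of the library labelled 15 days. After thinning, 14.1% of them had an FMOD UMI, against 0% of 79 haematopoietic-like cells, and 0.469% had DCN. So FMOD over that whole library tells mostly of hepatocyte-like cells, and in its mesenchymal-like cells FMOD was at 4.24 CPM (3.44 to 5.17), against 48.5 CPM without induction.

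Members were also compared cell by cell, within a cluster and library, after thinning to 2000 UMIs. Of 26 such sets with at least 20 cells on each side, LUM was found in more of the cells with DCN than of those without in 25, and the 95% intervals were apart in 19. In cluster 0 at 45 days, for example, 28.8% (23.6 to 34.3) of cells with DCN had LUM, against 11.8% (10.1 to 13.6) of the rest. For cells with ASPN there were 12 such sets. LUM was found in more of the cells with ASPN in 8, with intervals apart in 1 and a median difference of 3.49 percentage points. DCN was found in more of them in 10, with intervals apart in 2 and a median difference of 6.03 points.

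Over the same 12 sets, OGN was found in more of the cells with ASPN in 9, with intervals apart in 6 and a median difference of 5.21 points. For none of the 3 genes were intervals apart the other way. In uninduced cluster 2, 38.6% (32.7 to 44.8) of 264 cells with ASPN had OGN, against 9.58% (8.08 to 11.3) of 1388 cells without. In uninduced cluster 1 the shares were 24.7% (15.6 to 35.8) and 2.88% (1.92 to 4.14), and in cluster 0 at 45 days 9.43% (7.04 to 12.3) and 3.34% (2.36 to 4.57). The other way round, in all 3 sets with enough OGN cells, ASPN was found in more of the cells with OGN, with intervals apart and a median difference of 31.97 percentage points. DCN was also found in more of the cells with OGN in all 3, with intervals apart in 1 and a median difference of 5.78 points. Cells of 1 cluster and library are not replicates, and depth above the thinned number was not used. ASPN and OGN are the neighbours whose promoters are shown above, 51.5 kb apart with OMD between them, which was close to 0 throughout.

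**Figure D5:**
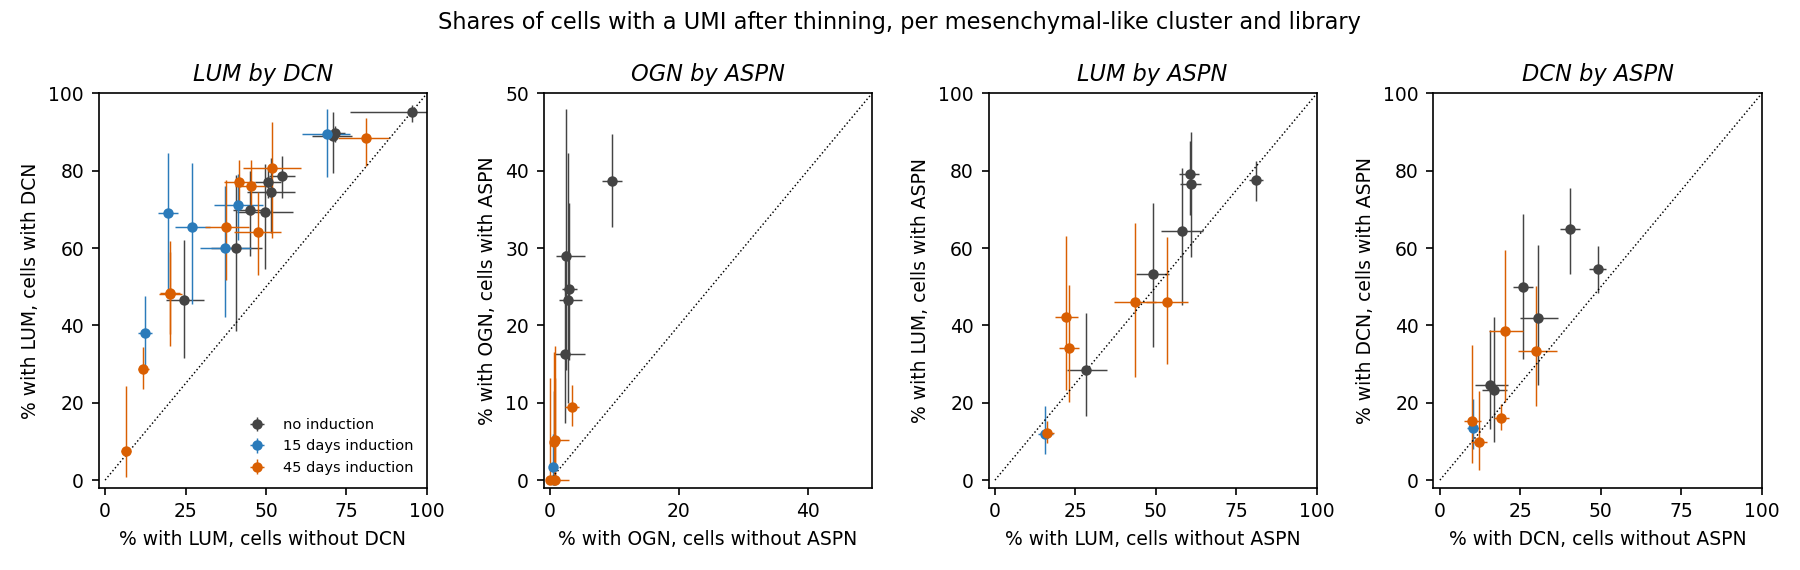
Percentage of cells with a UMI of the gene named first in each title, among cells with (vertical axis) and without (horizontal axis) a UMI of the gene named after it, after thinning, with exact 95% intervals. Each point is a mesenchymal-like cluster in 1 library (grey no induction, blue 15 days, orange 45 days), the dotted line marks equal shares, and the OGN panel has shorter axes. Points for LUM by DCN lie above the line in 25 of 26 sets, for OGN by ASPN in 9 of 12, for LUM by ASPN in 8 and for DCN by ASPN in 10.

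Across the 31 mesenchymal-like cluster and library sums, the genes with the levels most like those of ASPN were COL12A1, with a Pearson correlation of 0.74 of log2(CPM + 5), NRP2 at 0.68, SRPX at 0.68, RAI14 at 0.66 and LAPTM4A at 0.65, out of 4350 genes. COL12A1 encodes a fibril-associated collagen. For DCN they were LUM at 0.83, POSTN at 0.81, GPX8, EGFL6 and FST, each at 0.80. ASPN itself correlated with DCN at 0.33 and with OGN at 0.64, and DCN, on another chromosome, also correlated with OGN at 0.64. The points share 3 libraries and their depth, so these values are descriptions.

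Genes that work with the members were counted from lists chosen for their roles. Of 15 collagens and partners that entered, 6 were at least 2-fold lower over the whole library at 45 days than without induction, against 1.43% of all genes, and ELN was that much higher, against 1.7%. COL1A1, the fibril collagen bound by decorin, was at 1662, 322 and 425 CPM without induction, in the library labelled 15 days and at 45 days. COL3A1 was at 3608, 1369 and 1404 CPM. ELN, encoding elastin, was at 12.6 CPM without induction and 37.6 CPM at 45 days. The others lower at 45 days were COL15A1, FN1, COL5A1 and COL1A2, and the median log2 ratio of the list was -0.61. At 15 days 6 of 15 were lower, against 1.08% of all genes, with COL14A1 in place of FN1, and the median was -0.72. In mesenchymal-like cells 7 of 15 were lower at 45 days, against 1.43% of all genes, and 6 of 15 at 15 days, against 1.44%.

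Of 13 TGF-beta ligands, receptors and response genes that entered, 4 were at least 2-fold lower at 45 days over whole libraries, against 1.43% of all genes. They included POSTN, at 316 and 115 CPM without induction and at 45 days, LTBP1 and CTGF. At 15 days 3 of 13 were lower, POSTN, LTBP1 and TGFB2, against 1.08% of all genes. In the 16 enzymes that build glycosaminoglycan chains and entered, 0 were 2-fold apart over whole libraries at 45 days, where 1.43% of all genes were that much lower and 1.7% higher, so the count is near that of all genes. Their median log2 ratio was -0.16, the lowest being CHPF at -0.63 and the highest CHST2 at 0.59. Of 11 large proteoglycans 0 were 2-fold apart in that comparison, HSPG2 being lowest at -0.64 and BCAN highest at 0.99. In 3 others BCAN was at least 2-fold higher than without induction, 1 of 11 each time. Its log2 ratio was 1.22 over whole libraries at 15 days, where 4.51% of all genes were that much higher. In mesenchymal-like cells it was 1.03 at 45 days and 1.54 at 15 days, where 1.09% and 2.28% were. Of the 15 chain enzymes that entered in mesenchymal-like cells at 15 days, 1 was at least 2-fold higher, against 2.28% of all genes. This was CHST2, with a log2 ratio of 1.02.

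Of 7 proteases that cut proteoglycans and entered, 1 was at least 2-fold higher at 45 days over whole libraries, against 1.7% of all genes. This was MMP9, with 62.7 CPM without induction and 135 CPM at 45 days. MMP9 is among the leading genes of the mural-like cluster 6, which made up 3.52% and 6.08% of these libraries, and the part of that share in this was not tested. In mesenchymal-like cells MMP9 was at 53.0 and 56.1 CPM. There 1 of 7 proteases was at least 2-fold lower, against 1.43% of all genes. This was ADAMTS1, which cuts large proteoglycans, at 48.1 and 19.9 CPM. The list of receptors reported to bind members also holds the ligand VEGFA. Of its 7 genes that entered, 1 was at least 2-fold lower at 45 days over whole libraries, against 1.43% of all genes. This was KDR, with 89.5 and 26.1 CPM, and with 16.4 and 2.33 CPM in mesenchymal-like cells. It is also an endothelial marker, and endothelial-like cells made up 5.49% and 2.52% of these libraries, whose part in this was not tested. At 15 days 2 of 9 in this list were at least 2-fold higher than without induction, against 4.51% of all genes. ERBB4 was at 22.1 against 1.35 CPM and TLR4 at 15.2 against 4.92 CPM. In mesenchymal-like cells ERBB4 was at 2.40 against 1.65 CPM and TLR4 at 14.7 against 3.18 CPM. Neuron-like cells made up 5.93% against 0% of these libraries and hepatocyte-like cells 4.88% against 0.972%. The part of these shares in this was not tested. Of 9 other small leucine-rich proteoglycans, TSKU alone reached 10 CPM, at 18.8, 20.7 and 17.6 CPM.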

How the data were processed

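The 3 libraries are 10x Genomics 3′ v3 gene expression libraries from Chromium Chip B. The submitters' processing notes name Cell Ranger 3.0.0 and GRCh38, and the matrix header, per the file headers, gives software version 3.0.1. The gene annotation and the use of strand are not given in the sources used here. The values used are raw UMI counts per gene and barcode, as deposited by the authors.

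Cells were kept from 1000 UMIs and 500 genes upward, with mitochondrial UMIs up to 20% (86.6% to 89.6% of 10232, 5962 and 10765 barcodes). Simulated doublets were then used to remove 0.8% per 1000 kept cells, which was 4.24% to 7.71%. Clusters came from a shared neighbour graph (15 neighbours, 30 components, 2000 variable genes, members left out) and Leiden at resolution 1.0, with leidenalg 0.10.2, python-igraph 0.11.9, scikit-learn 1.9.0, SciPy 1.17.1, NumPy 2.4.6 and Python 3.11.15. A cluster was named from 3 or more markers at least 2-fold up and in at least 10% of its cells, a rule set after the data were seen. Clusters with under 50 cells in a library were given no level there, and names rebuilt in this way may differ from the study's.

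UMIs were summed per library, class, cluster or gate and scaled by the total (CPM). Genes at 10 CPM in at least 1 sum entered, and 2-fold calls used log2 ratios with 5 CPM added. Intervals are exact 95% Poisson, Clopper-Pearson or conditional binomial ones. With 1 library a group there is no test. The calls were checked on simulated data. Positions are from GENCODE 29, where 33456 of 33538 gene IDs were found. Genes named outside the family are those past 2-fold in the role lists, the extremes of a list with none, leading cluster genes, or the 5 most like ASPN and DCN among genes reaching 50 CPM; the gates and the doubts about single clusters were followed after their values were seen. The members and lists were chosen with earlier results of these data known. Some genes that the naming rule covers are not reported here.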

Additional observations from a re-analysis of the deposited data

Results flagged for a closer look

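ASPN had opposite directions in 2 mesenchymal-like clusters of the same libraries. At 45 days against no induction its log2 ratio was -2.05 in cluster 13, led by FOXF2, on 7 UMIs at 45 days and 90 without induction, and 1.54 in cluster 5, led by TCF21, on 145 and 127 UMIs. At 45 days against 15 days it was -1.85 in cluster 13, where the library labelled 15 days had 17 ASPN UMIs in 63 cells, and 2.02 in cluster 5. The 2 comparisons share the 45 day library.

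LUM had opposite directions between 15 and 45 days, with a log2 ratio of -1.21 in cluster 12, led by HAND1 and FOXF1, and 1.22 in cluster 13. With 1 library a group, the difference between clusters was not tested for either gene.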

How the results depend on the processing

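No paired analysis was possible because each group is 1 library and no replicate numbers are shared. Of 34 member log2 ratios, 27 kept their sign in every setting run and 3 called ones, all of FMOD, changed it. Over the whole library at 15 days FMOD became 0.66 without cluster 16. In mesenchymal-like cells it became 0.42 and 0.13 at 45 and 15 days without that cluster. With the same cluster weights it became 0.19 and 0.031 there. In these mesenchymal-like settings FMOD was under the 10 CPM floor in both libraries, so its direction there rests on low levels. With a floor of 50 CPM fewer members entered. Against no induction 2 were at least 2-fold lower (DCN and LUM) at 45 and at 15 days, in whole libraries and mesenchymal-like cells alike. With this floor 2.17% of all genes were that much lower at 45 days in mesenchymal-like cells. At 15 days and over whole libraries the share was at most 2.08% in any setting. From 15 to 45 days 1 (ASPN) was higher in mesenchymal-like cells, where at most 0.386% of all genes were in any setting. In mesenchymal-like cells with the same cluster weights, 1 was at least 2-fold lower at 45 days (OGN), against 0.174% of all genes. At 15 days 2 were (ASPN and OGN), against 0.162%. Among uncalled ratios in mesenchymal-like cells, LUM from 15 to 45 days became -0.19 with the same weights and BGN at 15 days -0.42 at resolution 0.5. ASPN at 45 days against no induction over whole libraries lay between 0.13 (median of ratios) and 0.33 (all barcodes). In mesenchymal-like cells it changed sign, lying between -0.20 (same cluster weights) and 0.44 (without the clusters led by ANKRD37 or DDIT4). Leaving out cluster 16 was chosen after the data were seen. The share of all genes at least 2-fold lower at 45 days over whole libraries ran from 0.572% with no floor to 2.07% with the median of ratios. Depth limits OMD, PRELP and, at 15 days, OGN, which rest on 3, 29 and 69 UMIs or fewer in a library.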
